A study of Homo sapiens with 6 samples.

Results

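The mitochondrially encoded genes are the rows of the mRNA sequencing table whose Ensembl identifier maps in GENCODE release 29 to a symbol that begins with MT-. This rule used names and no measured value. It found 17 of the 32364 genes in the table, 13 mRNAs, 2 rRNAs and 2 of the 22 tRNA genes that GENCODE places on the mitochondrial chromosome, and the other 20 tRNA genes were not analysed here. The cells were Kasumi-1, an established acute myeloid leukemia line of the M2 subtype that carries the t(8;21) fusion of RUNX1 with RUNX1T1. The 3 I13 libraries came from cells incubated with 0.5 µM I13, a histone deacetylase inhibitor made in the laboratory of the study, for 48 h. The 3 control libraries came from cells kept with control for 48 h, which the methods describe as DMSO at the concentration of the I13 solution. No other treatment or alteration is given for either group, and the comparison rests on 1 cell line, 1 dose and 1 time. Total RNA was taken up in Trizol and made into libraries with a stranded mRNA kit. The labels do not say whether the 3 libraries of a group came from separate cultures. The study describes its sequencing plots as representative of 3 independent experiments, without tying the libraries to them, so the p-values measure the spread between these libraries. The question asked of the data was whether RNA of the mitochondrial genome differed between I13 and control cells as a share of the library, by strand or by respiratory complex.

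The human mitochondrial genome is a small circle that carries mRNAs for core subunits of respiratory complexes I, III and IV and of the ATP synthase, complex V, together with the rRNAs and tRNAs that translate them. Both strands are copied into long transcripts by the RNA polymerase POLRMT with TFAM and TFB2M, and these are cut apart mostly at the tRNAs that lie between the other genes. Mitochondrial DNA is packaged by TFAM and not by histones. The abundance of each RNA is known to be set largely after transcription, by processing, by binding to the LRPPRC and SLIRP proteins and by decay through SUPV3L1 and PNPT1.

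The files give FPKM, the fragments on a gene scaled to the length of its exons and to the depth of the library. Fragments were recovered from these values and gave depths of 16566742 to 17221345 fragments in the control libraries and 15281052 to 16682550 in the I13 libraries. Of the markers of the line, RUNX1T1 lay between 12.5 and 14.4 FPKM, RUNX1 between 32.0 and 36.1 FPKM and KIT between 196 and 236 FPKM. CD34 lay between 38.3 and 45.9 FPKM and MPO, which encodes myeloperoxidase, between 10241 and 12449.7 FPKM. The groups overlapped for each of these markers. MPO was at a log2 fold change of -0.12 (unadjusted p = 0.242, limma). By voom its unadjusted p was 0.0210 and its adjusted p 0.767. Of the markers of other cell types, COL1A1 was at 0, CD3E had at most 5 fragments, and CD3D had 5 to 6 fragments in control and 2 in each I13 library. CD79A held 32 to 64 fragments and EPCAM 20.8 to 26.5 FPKM, with overlapping groups in both. CD33, a myeloid marker of the line, was 10.8 to 11.9 FPKM in control and 12.7 to 13.7 FPKM in I13 libraries. CD33 and CD3D had an unadjusted p under 0.05 (0.0166 and 0.0205, limma), as did 5.14% of all genes tested. The adjusted p was 0.890 for both (limma). The part of these markers in the values below was not tested. The first principal component of the log values (43.3% of the variance) did not follow the groups, while the second (20.5%) parted them. On the first, control replicate 3 lay with I13 replicate 2 on one side and the remaining 4 libraries on the other, so some results are also given for those 4. Fewer mitochondria, fewer genome copies and less RNA per genome cannot be told apart in such bulk samples.

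RNA of the mitochondrial genome was abundant in both groups and its share did not separate them. The 17 genes held 17.4, 18.6 and 17.5% in the control libraries and 17.7, 17.4 and 18.6% in the I13 libraries, as shares of the summed FPKM. The group means were 17.8% ± 0.681 and 17.9% ± 0.624 (SD, n = 3 each). Control replicate 2 and I13 replicate 3 were the highest libraries, and the ranges of the groups overlapped almost wholly. As a share of fragments, where long genes weigh more, they held 5.48, 5.92 and 5.55% in the control libraries and 5.58, 5.57 and 5.86% in the I13 libraries. The means on this scale were 5.65% ± 0.237 and 5.67% ± 0.167, a difference smaller than the SD of either group. A library held 887894 to 1016033 mitochondrial fragments, so counting error on the share was far below the spread between libraries. 9 of the 17 genes were among the 20 genes with the highest FPKM in every library.

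The mRNAs took 82.7% to 84.9% of the mitochondrial fragments of a library, the rRNAs 15.03% to 17.2% and the tRNA genes 0.0602% to 0.0768%. Of the summed FPKM of the 13 mRNAs, the 3 mRNAs of complex IV held 54.0% to 56.1% and the 7 of complex I 31.6% to 32.9%. The 2 mRNAs of complex V held 6.35% to 7.16% and MT-CYB, the single mRNA of complex III, 5.45% to 5.97%. The complexes kept this order in all 6 libraries, and the groups overlapped for each of the 4.

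**Figure D1:**
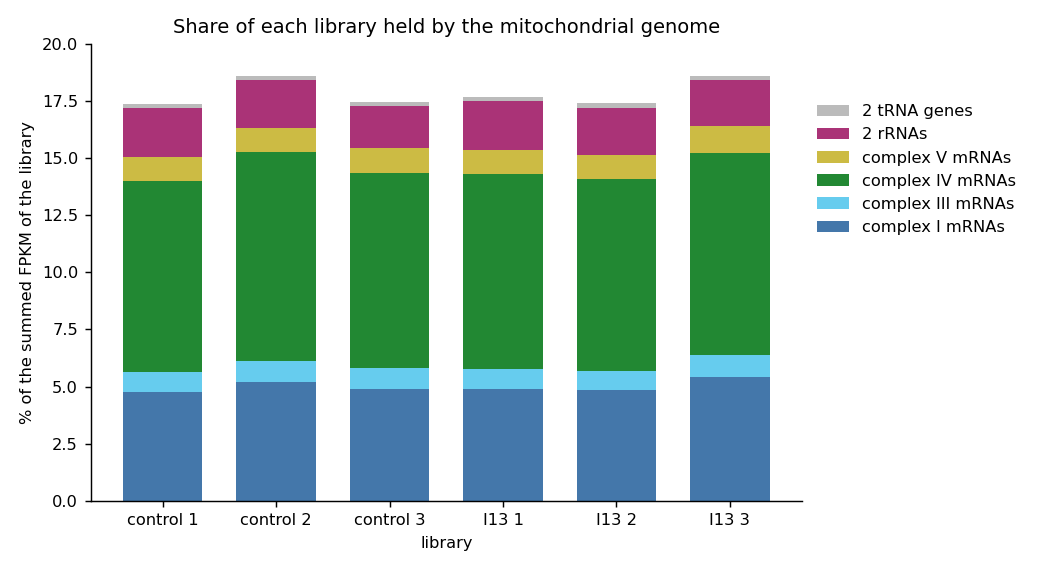
Stacked bars of the share of each library's summed FPKM (vertical axis, percent) held by the mitochondrial genes, split by respiratory complex, rRNA and tRNA, 1 bar per library without error bars. The bars reach 17.4% to 18.6%, complex IV forms the largest block in each, and the tallest are control 2 and I13 3.

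The mRNAs of complex IV, cytochrome c oxidase, were the most abundant. MT-CO1 (ENSG00000198804, chrM:5904-7445) encodes its catalytic subunit and measured 9695, 11013 and 10419.9 FPKM in control replicates 1, 2 and 3 and 9686, 9840.4 and 10429 FPKM in I13 replicates 1, 2 and 3. MT-CO2 (ENSG00000198712, chrM:7586-8269), the subunit that accepts electrons from cytochrome c, measured 7005, 7463 and 7249.6 FPKM in the control libraries and 6902, 7057 and 7339 FPKM in the I13 libraries. MT-CO3 (ENSG00000198938, chrM:9207-9990), a structural core subunit, measured 7632, 8321 and 7428 FPKM in the control libraries and 8359, 8084 and 8218 FPKM in the I13 libraries. MT-CO1 was above every other mitochondrial gene in all libraries, and the groups overlapped for all 3 mRNAs. Coordinates are those of GENCODE release 29 on GRCh38, in which each member is a single exon and all except MT-ND6 and MT-TP lie on the plus strand.

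The 7 subunits of complex I, NADH dehydrogenase, spanned 911 to 4032 FPKM as means over the 6 libraries. MT-ND4 (ENSG00000198886, chrM:10760-12137), which forms a proton channel of the membrane arm, was the highest of them and measured 3942, 4286 and 4024 FPKM in the control libraries and 3812, 3833 and 4294 FPKM in the I13 libraries. MT-ND2 (ENSG00000198763, chrM:4470-5511), which forms another such channel, measured 2924, 3466 and 3186 FPKM in the control libraries and 3067, 3167 and 3533 FPKM in the I13 libraries. MT-ND1 (ENSG00000198888, chrM:3307-4262), which lines the site of ubiquinone, measured 2742, 3089 and 2925 FPKM in the control libraries and 2829, 3021 and 3321 FPKM in the I13 libraries. For these 3 subunits of the membrane arm, I13 replicate 3 was the highest I13 library and control replicate 2 the highest control library. MT-ND5 (ENSG00000198786, chrM:12337-14148), the channel subunit at the far end of the arm, measured 1364, 1356 and 1253 FPKM in the control libraries and 1408, 1377 and 1481 FPKM in the I13 libraries. MT-ND3 (ENSG00000198840, chrM:10059-10404), a small subunit where the arms meet, measured 1089.9, 1210.5 and 1262 FPKM in the control libraries and 1311, 1302 and 1209.7 FPKM in the I13 libraries. MT-ND4L (ENSG00000212907, chrM:10470-10766), another small membrane subunit, measured 814, 1003 and 962 FPKM in the control libraries and 954, 867 and 999 FPKM in the I13 libraries. MT-ND5 was the single gene of the 17 whose groups did not overlap, with all I13 libraries above all control libraries. Over all 18726 genes tested, 9.52% had groups that did not overlap and 4.88% had all I13 libraries higher.

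MT-ND6 (ENSG00000198695, chrM:14149-14673) is the complex I subunit encoded on the minus strand and measured 929, 854 and 838 FPKM in the control libraries and 936, 906 and 1003 FPKM in the I13 libraries. Its groups overlapped, with I13 replicate 3 the highest library. MT-CYB (ENSG00000198727, chrM:14747-15887), the cytochrome b of complex III, measured 2558, 2692 and 2709.9 FPKM in the control libraries and 2618, 2456 and 2832 FPKM in the I13 libraries, and the highest and the lowest of these values were both I13 libraries.

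The 2 mRNAs of complex V stood far apart. MT-ATP6 (ENSG00000198899, chrM:8527-9207), which encodes the subunit of the proton channel, measured 2924, 2953 and 3002 FPKM in the control libraries and 2935, 3045 and 3329 FPKM in the I13 libraries. MT-ATP8 (ENSG00000228253, chrM:8366-8572), a small subunit of the same membrane part, measured 105, 81.6 and 124 FPKM in the control libraries and 103, 83.4 and 113 FPKM in the I13 libraries. MT-ATP6 was 24.3 to 36.5 times MT-ATP8 per length in a library, although both are parts of a single transcript. The same holds for MT-ND4L and MT-ND4, where MT-ND4 was 3.997 to 4.85 times MT-ND4L. In both pairs the end of the first gene is the start of the second, and the sequences below show this overlap in capitals with the bases before it in lower case, on the plus strand of GRCh38 from the GENCODE transcripts. The first line covers chrM:8503-8572 and the second chrM:10736-10766.
MT-ATP8 and MT-ATP6: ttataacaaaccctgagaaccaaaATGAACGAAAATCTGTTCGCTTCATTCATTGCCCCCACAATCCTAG
MT-ND4L and MT-ND4: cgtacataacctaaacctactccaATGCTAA
The capitals begin with the ATG of the second gene. The overlap took 46 of the 207 bases of MT-ATP8 (22.2%) and 7 of the 297 bases of MT-ND4L (2.36%). The counting of fragments on shared bases is not described in the sources used here, and the levels of the 4 genes are uncertain relative to each other, that of MT-ATP8 most of all. MT-ATP8 rested on 288 to 424 fragments per library and was the most variable mRNA, with a coefficient of variation of 20.3% in control and 15.1% in I13 libraries against 5.38% from counting. In the other 12 mRNAs it lay between 1.33% and 10.8%, where counting gives at most 1.48%.

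**Figure D2:**
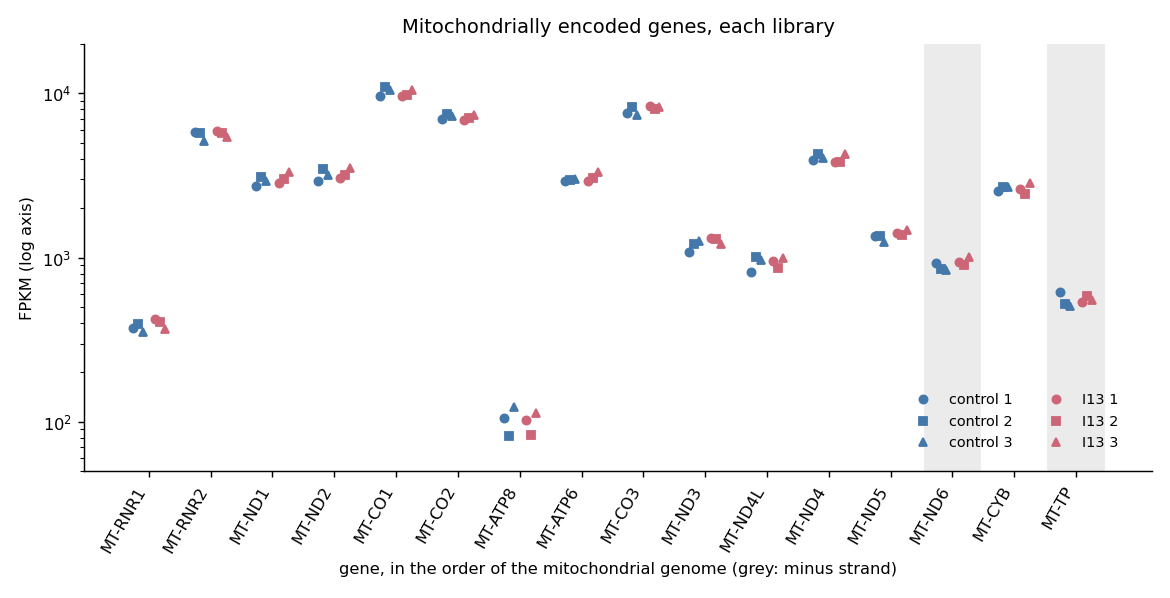
FPKM of 16 mitochondrial genes (vertical log axis) in the order of the genome, 1 point per library, with control in blue, I13 in red and minus-strand genes shaded. MT-CO1 lies near the top at 9686 to 11013 FPKM and MT-ATP8 at the bottom at 81.6 to 124 FPKM, and for each gene the points of both groups lie close together.

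By mean FPKM the mRNAs ran MT-CO1, MT-CO3, MT-CO2, MT-ND4, MT-ND2, MT-ATP6, MT-ND1, MT-CYB, MT-ND5, MT-ND3, MT-ND4L, MT-ND6 and MT-ATP8. Neighbours in this order overlapped over the 6 libraries for MT-CO3 with MT-CO2, MT-ND2 with MT-ATP6, MT-ATP6 with MT-ND1, MT-ND1 with MT-CYB, MT-ND5 with MT-ND3 and MT-ND4L with MT-ND6. Within each library MT-CO3 was still above MT-CO2 (1.02 to 1.21 times) and MT-ND1 above MT-CYB (1.07 to 1.23 times), while the order of the other 4 pairs changed between libraries. The widest steps were from MT-ND6 to MT-ATP8 (9.15-fold in the mean), from MT-CYB to MT-ND5 (1.93-fold) and from MT-CO2 to MT-ND4 (1.78-fold). These steps parted the genes in each library.

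The ends of the transcripts are shown because mitochondrial polyadenylation is known to complete reading frames as well as to mark mRNA. 6 of the 13 annotated coding sequences stop short of a whole stop codon, which the added A bases supply. The last 15 bases of these 6 are printed below, with the base or bases beyond the last whole codon in capitals.
MT-ND1: tccccctcaaaccTA
MT-ND2: tactaataatcttaT
MT-CO3: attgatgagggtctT
MT-ND3: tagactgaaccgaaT
MT-ND4: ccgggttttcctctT
MT-CYB: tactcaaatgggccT
In 5 of them the remainder was a single T and in MT-ND1 it was TA. The other 7 were whole codons in length. They ended in TAA or TAG except MT-CO1, which ended in AGA, and MT-ND6, which ended in AGG. The last base of MT-ATP6, at chrM:9207, is also the first base of MT-CO3. Selection of mRNA by the kit takes up polyadenylated RNA, so these levels describe the RNA that passed that step. The 6 mRNAs without a whole stop codon took places from the second to the tenth in the order of levels.

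The rRNAs were read at very different levels. MT-RNR2, the 16S rRNA of the large mitochondrial ribosomal subunit (ENSG00000210082, chrM:1671-3229), measured 5820.2, 5769 and 5133 FPKM in the control libraries and 5885, 5710.4 and 5443 FPKM in the I13 libraries. MT-RNR1, the 12S rRNA of the small subunit (ENSG00000211459, chrM:648-1601), measured 371, 395 and 354 FPKM in the control libraries and 425, 405 and 366 FPKM in the I13 libraries. Each group held high and low libraries for both, and the groups overlapped. MT-RNR2 was 13.9 to 15.7 times MT-RNR1 per length. Ribosomes hold both rRNAs in equal number, and a kit that selects mRNA does not measure that ratio.

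Of the tRNA genes, MT-TP, the tRNA of proline on the minus strand, measured 617, 524 and 508 FPKM in the control libraries and 534, 582 and 551 FPKM in the I13 libraries and rested on 572 to 723 fragments. Control replicate 1 was its highest library, and the groups overlapped. Its 68 bases (ENSG00000210196, chrM:15956-16023, shown on the minus strand from the GENCODE transcripts) are printed because this gene held nearly all tRNA fragments.
MT-TP: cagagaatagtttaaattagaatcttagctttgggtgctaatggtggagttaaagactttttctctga
MT-TF, the tRNA of phenylalanine (ENSG00000210049, chrM:577-647, plus strand), had 2, 1 and 0 fragments in the control and 0, 2 and 0 in the I13 libraries. No fold is given for it. A fragment counted on a gene as short as MT-TP can come from a longer minus-strand transcript, and the counts do not part these.

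The strands were compared through MT-ND6. Its transcript is rich in G, with 35.6% G and 7.05% C, while the other 12 mRNAs hold 6.28% to 16.2% G and 29.5% to 36.0% C. For each 100 fragments on the other 12 mRNAs, MT-ND6 had 1.09, 0.909 and 0.942 fragments in the control and 1.08, 1.04 and 1.07 in the I13 libraries. Control replicate 1 was the highest library, and control replicates 2 and 3 were below all I13 libraries. The log2 difference was 0.12, with an exact two-sided permutation p of 0.4, where 3 against 3 libraries cannot go below 0.1. Against MT-ND5 alone, its neighbour on the plus strand, MT-ND6 had 18.3 to 19.7 fragments for each 100 (log2 difference 0.016, exact p = 0.9). Together the minus-strand genes MT-ND6 and MT-TP held 0.966, 0.818 and 0.855% in the control libraries and 0.946, 0.925 and 0.962% in the I13 libraries of the mitochondrial fragments. The kit marks strand, but the sources used here do not say whether the counting used it, so fragments of antisense transcripts opposite these genes may be included. How well the mRNA selection of the kit takes up MT-ND6 relative to the other mRNAs was not measured. The ratios describe RNA that passed that step and do not give the output of each strand.

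No mitochondrial gene passed the test between I13 and control. With limma, 0 of the 17 genes had an unadjusted p under 0.05, against 5.14% of the 18726 genes tested, and at the adjusted p none of the 18726 genes passed, the 17 included. The adjusted p of the 17 lay between 0.979 and 1.00. By voom on the recovered fragments, 0 of 16 genes had an unadjusted p under 0.05, against 5.36% of all, and the lowest was 0.0682 for MT-ND5. At voom's adjusted p it was 0 of 16 against 0.0362% of all. The log2 fold changes of the 13 mRNAs ranged from -0.054 to 0.12 with a median of 0.029, where the median of all genes tested was 0.0058. 8 of the 13 were above 0 and 5 below, and 51.8% of all genes were above 0. Their median size regardless of sign was 0.054 against 0.11 over all genes. The 13 mRNAs had means of 102 to 10181 FPKM, while all genes reach down to a mean of 0.1. Genes of like level were not compared.

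The 2 mRNAs with the lowest p were both of complex I. MT-ND6 was 874 ± 48.5 FPKM in control and 949 ± 49.8 FPKM in I13 libraries, a log2 fold change of 0.12 ± 0.065 (SE) with an adjusted p of 0.979 (limma) and an unadjusted one of 0.111. MT-ND5 was 1324 ± 62.0 FPKM in control and 1422 ± 53.4 FPKM in I13 libraries, a log2 fold change of 0.10 ± 0.061 (SE) with an adjusted p of 0.983 (limma) and an unadjusted one of 0.137. Of the 7 complex I mRNAs, 6 had a log2 fold change above 0, with a median of 0.065, MT-ND4 being the exception at -0.039. Under quantile normalization MT-ND1 and MT-ND4 were at 0 and MT-ND4L at -0.0018. That scaling sets each value by the rank of the gene in its library. MT-ND4 held rank 6 in every library, so its 0 was fixed in advance, and MT-ND1 held rank 10 or 11. Apart from MT-ND6 and MT-ND5, the highest complex I mRNA was MT-ND3 at 0.10 (adjusted p = 0.983, limma). None of these differences was separated from 0 by its 95% interval.

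In complex IV, MT-CO1 had the lowest value of the mRNAs, -0.054 (adjusted p = 1.000, limma), with 0.061 under quantile normalization, MT-CO2 at -0.028 and MT-CO3 at 0.078. The 0.061 reflects the rank of MT-CO1, which was 1 in I13 replicate 3 and 2 in every other library. As a share of the summed FPKM of the 13 mRNAs, MT-CO1 held 22.2, 23.0 and 23.0% in the control libraries and 21.6, 21.8 and 21.7% in the I13 libraries. On this scale, looked at after the values were seen and not tested, all 3 I13 libraries were below all 3 control libraries, with a difference of -1.03 percentage points in the mean. MT-CYB was at -0.012, MT-ATP6 at 0.066 and MT-ATP8 at -0.043. The rRNAs were at 0.093 for MT-RNR1 (adjusted p = 0.983, limma) and 0.029 for MT-RNR2, and MT-TP was at 0.020, or -0.052 under quantile normalization.

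The intervals say how large a difference these libraries could hold. For all 16 genes other than MT-TF, the 95% interval of the log2 fold change lay within ±0.58, the fold threshold of the study. Such an interval was found for 54.1% of all genes tested, a set that reaches down to a mean FPKM of 0.1. The bounds ran from -0.44 to 0.35, both for MT-ATP8. Without it they ran from -0.26 to 0.27, which is 0.834-fold to 1.21-fold. A difference of the size measured for MT-ND6, 1.09-fold, could not be told from the spread between libraries. In the 4 libraries that lie together, the median log2 fold change of the mRNAs was 0.075, and between control replicate 3 and I13 replicate 2 it was -0.0086. MT-ATP8 had opposite signs there, 0.22 in the 4 and -0.57 in the pair.

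**Figure D3:**
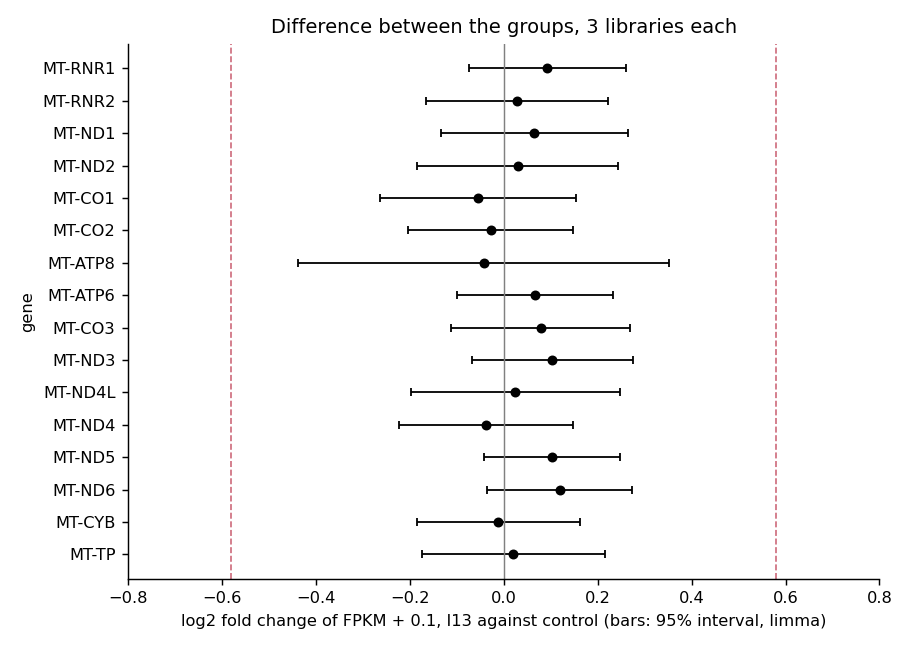
Log2 fold change of FPKM + 0.1 of 16 mitochondrial genes, I13 against control (horizontal axis), as points with 95% intervals from limma, and the fold threshold of ±0.58 as dashed lines. Each interval crosses 0 and stays between the dashed lines, and the interval of MT-ATP8, -0.44 to 0.35, is the widest.

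Copies of mitochondrial sequence in the nuclear chromosomes, annotated as pseudogenes, can take up fragments of mitochondrial RNA or give RNA of their own, which these counts do not part. The table holds 101 of them, of which 68 were above 0 and 3 had a mean of at least 100 fragments. In sum the copies held 1.20 to 1.30 fragments for each 100 on the mitochondrial genes. MTATP6P1 (chr1:633696-634376, plus strand), a copy of MT-ATP6, had 6417, 6748 and 6333 fragments in the control and 5835, 6295 and 5629 in the I13 libraries. MTND2P28 (chr1:629640-630683, plus strand), a copy of MT-ND2, had 4733, 5363 and 5202 fragments in the control and 4704, 4717 and 4815 in the I13 libraries. These 2 took 96.1% to 97.2% of all fragments on copies. MTCO1P12 (chr1:631074-632616, plus strand), a copy of MT-CO1, had 315, 295 and 348 in the control and 267, 252 and 215 in the I13 libraries. The next, MTND4P12 and MTND5P11 on chromosome 5, had means of 22.3 and 9.17 fragments.

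6 copies, the 3 most abundant among them, lie in a single block on chromosome 1 in the order of the mitochondrial genome. Aligned to their mitochondrial gene, MTATP6P1 matched at 98.5% of bases, MTND2P28 at 98.4% and MTCO1P12 at 98.7%, and MTCO2P12 in the same block at 98.2%. Their fragments did not follow this likeness. For each 100 fragments on the mitochondrial gene, MTATP6P1 had 16.2 to 19.6, MTND2P28 8.56 to 9.46, MTCO1P12 0.0875 to 0.131 and MTCO2P12 at most 0.00364. MT-ATP6 and MTATP6P1 differ at 10 of 681 bases and share a run of 141 identical bases. The 60 bases in which they differ most are printed below, with the differing bases in capitals, at chrM:8642-8701 and chr1:633811-633870 of GRCh38, both on the plus strand.
MT-ATP6: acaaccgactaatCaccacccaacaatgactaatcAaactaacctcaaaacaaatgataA
MTATP6P1: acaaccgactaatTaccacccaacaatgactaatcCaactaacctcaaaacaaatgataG
The sources used here do not say how fragments that match both places were assigned. The levels of MT-ATP6, MT-ND2 and MT-CO1 are uncertain to the extent of these copies, and adding the copy to its gene gave log2 differences between the groups of 0.049, 0.026 and -0.054 on log2 fragments scaled to depth, where the genes alone were at 0.066, 0.029 and -0.054 in the fit.

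**Figure D4:**
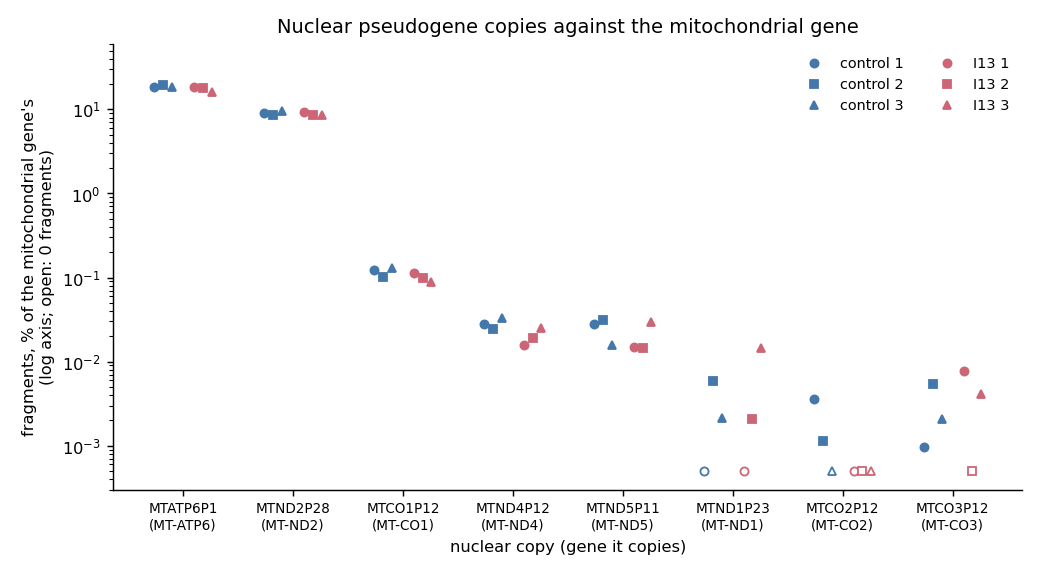
Fragments on 8 nuclear copies as a percentage of the fragments on the mitochondrial gene in the same library (vertical log axis, 1 point per library, open symbols at the bottom for 0 fragments). The first 2 copies lie between 8.56% and 19.6%, and the others at 0.131% or lower.

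Of 24 copies tested, 2 had an unadjusted p under 0.05, against 5.14% of all genes, and 1 of these 2 had at most 2 fragments in a library. MTCO1P12 was 12.2 ± 1.27 FPKM in control and 9.93 ± 0.883 FPKM in I13 libraries, a log2 fold change of -0.29 ± 0.10 (SE) (adjusted p = 0.890, limma). Its groups did not overlap. The other, MTND3P25, was chosen for its p and had no fragment in the controls and 2, 1 and 1 in the I13 libraries, which is too few to give a fold. It reached the filter of a mean FPKM of 0.1 through the I13 libraries alone, so its p is no support for a difference. MTATP6P1 was at -0.046 (adjusted p = 0.993, limma) and MTND2P28 at -0.012, and neither passed the unadjusted p. The ratio of MTATP6P1 to MT-ATP6 was lower in all I13 libraries than in all control libraries, 17.6 ± 1.17 against 19.0 ± 0.491 fragments for each 100 (SD, n = 3 each), and this was not tested.

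The nuclear genes that express the mitochondrial genome were read in the same fit. The 5 lists for transcription, RNA processing and decay, DNA maintenance, translation factors and mitochondrial ribosomal proteins held 170 genes tested, of which 4 were higher and 1 lower in I13 at an unadjusted p under 0.05. That is 2.94%, where all genes gave 5.14%, and none passed the adjusted p. The median log2 fold change over these genes was 0.018. The count moved when libraries were left out, and so did that of all genes, which was 963 in the main fit. Without control replicate 2 it was 3 (all genes 796) and without I13 replicate 1 it was 3 (815). Without control replicate 3 it was 11 (all genes 1179), without I13 replicate 2 it was 12 (1233) and in the 4 libraries 15 (1513).

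Of the 10 transcription genes tested, none passed. The RNA polymerase POLRMT was 24.5 ± 1.93 FPKM in control and 24.8 ± 1.36 FPKM in I13 libraries, a log2 fold change of 0.018 (95% interval -0.15 to 0.19). TFAM, which packages the genome and opens its promoters, was 19.4 ± 0.299 FPKM in control and 19.8 ± 2.18 FPKM in I13 libraries, at 0.028 (95% interval -0.17 to 0.22). The groups overlapped for both. TFB2M, which melts the promoter, was at 0.0060 (95% interval -0.20 to 0.21) and the elongation factor TEFM, with 80 to 119 fragments, at 0.11 (95% interval -0.27 to 0.50). The lowest p of this list was 0.377 for MTERF2, at 0.14.

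None of the 33 genes of RNA processing and decay passed. LRPPRC, which with SLIRP holds mitochondrial mRNAs stable, was 36.0 ± 3.86 FPKM in control and 34.9 ± 3.71 FPKM in I13 libraries, at -0.047 (95% interval -0.29 to 0.20), and SLIRP was at 0.066 (95% interval -0.23 to 0.36). The helicase SUPV3L1 was at -0.058 (95% interval -0.21 to 0.10) and the exonuclease PNPT1, its partner in decay, at 0.068 (95% interval -0.12 to 0.26). The rRNA methyltransferase MRM2 had the lowest p of the list, 0.160, at -0.083. None of the 20 DNA maintenance genes passed either, with the DNA polymerase POLG at -0.026 (95% interval -0.17 to 0.12), the helicase TWNK at 0.048 (95% interval -0.086 to 0.18) and the lowest p, 0.152, for DGUOK at 0.14.

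Of 30 translation factors 1 passed the unadjusted p. FARS2, the mitochondrial tRNA ligase for phenylalanine, was 6.41 ± 0.384 FPKM in control and 5.62 ± 0.184 FPKM in I13 libraries, a log2 fold change of -0.19 ± 0.073 (SE) (adjusted p = 0.947, limma). It did not pass the unadjusted p by voom, where another 1 of the 29 translation factors tested was lower, against 5.36% of all genes in either direction. The share by limma, 3.33%, compares with 5.14% of all genes in either direction and 2.59% lower at that p. Of 78 mitochondrial ribosomal proteins 4 were higher and 0 lower in I13 at the unadjusted p. That is 5.13%, where all genes gave 5.14% in either direction and 2.55% higher. A log2 fold change above 0 was seen in 50 of the 78, with a median of 0.027, and in 51.8% of all genes. MRPL53 was 1.69 ± 0.313 FPKM in control and 2.69 ± 0.490 FPKM in I13 libraries, a log2 fold change of 0.64 ± 0.18 (SE) (adjusted p = 0.859, limma), on 33 to 73 fragments. MRPS28 was 0.389 ± 0.115 FPKM in control and 0.756 ± 0.0889 FPKM in I13 libraries, a log2 fold change of 0.83 ± 0.25 (SE) (adjusted p = 0.875, limma), on 9 to 26 fragments. These 2 were past the fold threshold of 0.58, which with the p 2.38% of all genes passed. MRPL40 and MRPL52, which passed the p alone, were at 0.23 and 0.15, and MRPL52 did not pass it by voom. By voom 4 of the 77 ribosomal proteins tested were higher at the unadjusted p and 0 lower, against 5.36% of all genes in either direction.

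**Figure D5:**
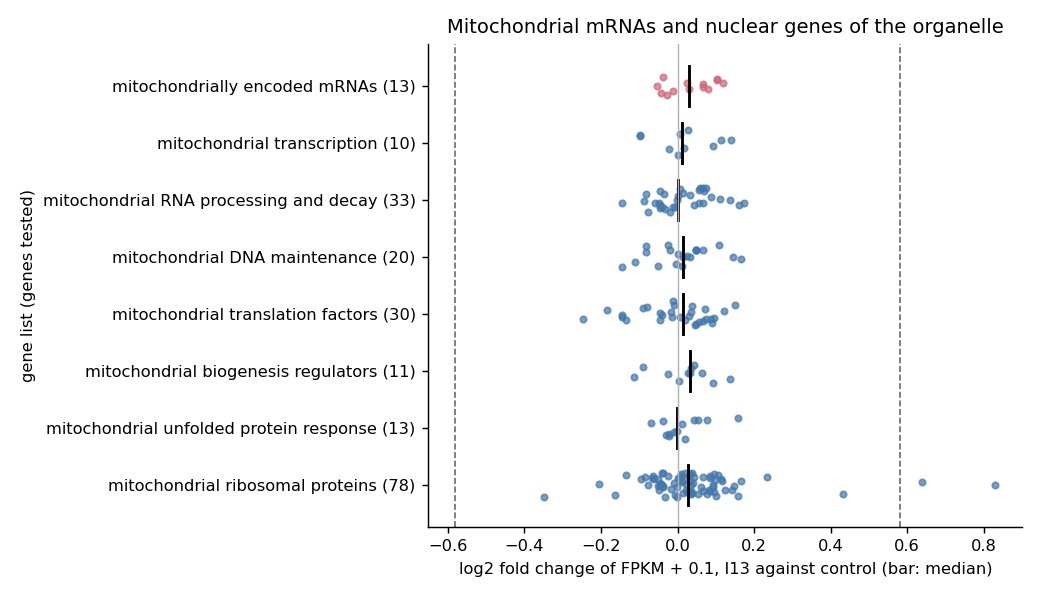
Log2 fold change, I13 against control (horizontal axis), of the mitochondrially encoded mRNAs (red) and of the nuclear genes in 7 lists (blue), 1 point per gene, a black bar at the median of each list and dashed lines at ±0.58. The medians lie between -0.00068 and 0.032, the 13 mRNAs stay between -0.054 and 0.12, and MRPL53 and MRPS28 are the points beyond the right line.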

How the data were processed

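The authors deposited 1 table of FPKM values for 32364 genes and 6 libraries of Kasumi-1 cells, made from TruSeq Stranded mRNA libraries. The submitters' processing notes name Trimmomatic, HISAT2, Cufflinks, HTSeq and hg38, without versions. The sources used here do not describe the annotation or the treatment of strand and of fragments with several matches. With GENCODE 29 exon lengths, 25773 of 27002 genes above 0 that have a length (95.4%) gave whole fragments in all libraries within 0.01, and the remaining 1322 of the 27095 genes above 0 were recovered through the smallest step that all their values share. Such counts give counting error only.

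Groups were taken from the sample labels. For 18726 genes whose mean FPKM reached 0.1, log2(FPKM + 0.1) was tested in R 4.3.3 with limma 3.58.1, two-sided, with a variance trend and Benjamini-Hochberg adjustment over all genes. Fold changes are on this scale, which understates those of low genes. The adjusted p had to be under 0.05 with a log2 fold change of 0.58 or more in size. Sums over genes were not tested. The MT-ND6 ratio had an exact permutation test (scipy 1.17.1). Alternatives were voom on fragments (genes with 10 or more on average), other pseudocounts, filters and scalings, a replicate block and left-out libraries. The scripts were tested on simulated data. Copies were aligned with Biopython 1.88.

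The members and gene lists were chosen with earlier results of these data known. Named were all members, tRNA genes in full from a mean of 100 fragments, 10 nuclear genes, any list member past an unadjusted p of 0.05 and the fold threshold or with the lowest p of its list, and the 5 copies with the most fragments. Others named, such as MRPL40, MRPL52, MTCO2P12 and MTND3P25, were chosen after their values were seen. Values of some single genes are not reported here.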

Additional observations from a re-analysis of the deposited data

How the results depend on the processing

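The count of 0 mitochondrial genes at the adjusted p held in all 18 alternatives, and that of 0 at the unadjusted p in all except the fit of 4 libraries, where 1 gene passed the p and the fold, MT-TF with 0 to 2 fragments. Under quantile normalization MT-RNR2, MT-ND1, MT-CO2, MT-CO3 and MT-ND4 were at 0, without a sign, and were not counted as opposite. Of 288 fold changes of 16 genes under the alternatives, 19 in 7 genes had the opposite sign, none with a p under 0.05. They were MT-CO1 0.061, MT-ND4L -0.0018 and MT-TP -0.052 under quantile normalization, MT-RNR2 -0.034, MT-ATP8 0.22, MT-CYB 0.053 and MT-TP -0.068 in the 4 libraries, and with 1 library left out in turn the values of these genes ran from -0.030 to 0.061 for MT-RNR2, from -0.032 to 0.090 for MT-ND2, from -0.20 to 0.10 for MT-ATP8, from -0.066 to 0.085 for MT-ND4L, from -0.065 to 0.038 for MT-CYB, from -0.034 to 0.11 for MT-TP. Leaving out 1 library moved the difference in the share of summed FPKM over -0.284 to 0.460 percentage points, that in the share of fragments over -0.0760 to 0.156, the log2 difference of the MT-ND6 ratio over 0.067 to 0.20 and the median log2 fold change of the mRNAs over -0.021 to 0.085. The voom fit with the depth of the genes outside the mitochondrial genome was added after the data had been seen. All genes at the adjusted p and the fold numbered 9 without the trend, 4 by voom, 4 by voom with the outside depth, and 0 to 2 with 1 library left out. At the unadjusted p they numbered 963, and 582 with a minimum mean FPKM of 1, where fewer genes were tested, 1513 in the 4 libraries and 764 to 1233 with 1 left out. The nuclear expression lists had 5 members at the unadjusted p, 3 without the trend, 15 in the 4 libraries and 3 to 12 with 1 library left out, 3 without control replicate 2 or I13 replicate 1, 11 without control replicate 3 and 12 without I13 replicate 2, and the cause was not tested. The replicate numbers did not pair the libraries (correlations of the deviations 0.320, -0.379 and -0.297 for numbers 1, 2 and 3), and the replicate block gave 862 genes at the unadjusted p, 0 of them mitochondrial, and a median log2 fold change of 0.029 for the mRNAs. Depth limits MT-TF and the copies with few fragments.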

Other observations

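Further gene groups of the organelle were read in the same fit. Of 11 regulators of mitochondrial biogenesis tested, TFAM among them, none passed the unadjusted p, 8 had a log2 fold change above 0 and the median was 0.032. The lowest p was that of NRF1, a transcription factor of nuclear genes for respiration, which was 5.76 ± 0.203 FPKM in control and 6.36 ± 0.512 FPKM in I13 libraries, at 0.14 (adjusted p = 0.983, limma). Of 13 genes of the mitochondrial unfolded protein response, none passed, 6 were above 0 and the median was -0.00068. The lowest p there was that of HSPE1, the co-chaperonin of the matrix, which was 3.81 ± 0.716 FPKM in control and 4.21 ± 0.129 FPKM in I13 libraries, at 0.16 (adjusted p = 0.983, limma).

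MPO, the gene of myeloperoxidase, and MT-CO1 were the genes with the highest FPKM of these libraries. MPO measured 11686, 11693 and 12449.7 FPKM in the control libraries and 11056, 11783 and 10241 FPKM in the I13 libraries, and MT-CO1 was above it in 1 library, I13 replicate 3.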
